A study of Mus with 8 samples.

Results

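In these cultures, 57 of the 17640 gene IDs in the count table had more transcript in elastic than in viscous gel in both genotypes. The 57 were chosen by the measured gel difference itself. CPM are counts scaled to a library total of 1000000. Only the 11743 IDs that averaged 50 or more counts over the 8 libraries were kept. A member had a log2 ratio of elastic to viscous mean CPM, with 0.1 CPM added to each mean, above 1 (more than 2-fold) in control cells and also above 1 in Jak2 V617F cells. The gel difference of the members is therefore a description and was not tested. The files give Ensembl IDs without gene names, and the RefSeq gene table used (49997 genes) paired 0 of the 17640 IDs with a symbol. The members are for this reason called by number, in order of the smaller of their ratios, from member 1 (the largest) to member 57. IDs are printed for the first 2 only: member 1 is ENSMUSG00000076609 and member 2 is ENSMUSG00000095079.

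The cells were bone marrow monocytes of C57BL/6 mice, isolated by negative selection and cultured inside stiff hydrogels until day 3. The medium held the cytokine IL4 at 200 ng/mL, and both GM-CSF and PGE2 at 100 ng/mL. Control cells carried Vav-iCre, a recombinase driven by a promoter active in blood-forming cells, and the Jak2 V617F cells carried Vav-iCre with the knock-in Jak2 V617F allele. Each genotype was grown in a viscous gel (VLVG in the titles) and an elastic gel (NbTz), with 2 libraries in each of the 4 groups. All groups thus share the recombinase, the cytokines, the gel digestion with collagenase and alginate lyase, and the day. Each title ends in a number, and each number occurs once in each gel of a genotype. These are called replicates A and B in control cells (titles 2_WT_VLVG_6060 and 4_WT_NbTz_6060 for A) and replicates C and D in Jak2 V617F cells (titles 5_Jak2_VLVG_6061 and 8_Jak2_NbTz_6061 for C). What a number stands for (an animal, a culture or a day) is not stated, so the p-values rest on a library-to-library spread that may be technical in part.

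Monocytes are circulating precursors that become macrophages or dendritic cells in tissue, and GM-CSF with IL-4 is a standard way to drive them toward a dendritic cell form in culture. JAK2 is the kinase that carries the GM-CSF signal from its receptor to STAT5, and the V617F change makes it active without a ligand. PGE2 is a prostaglandin that acts on myeloid cells through cAMP. An elastic gel stores the force a cell applies and pushes back, whereas a viscous gel dissipates it, so the cell meets a different resistance at the same stiffness. The gels may also differ in other ways, which cannot be told apart from elasticity here. Without gene names, neither the monocyte identity of the cells nor the level of Jak2 was checked in these files, and RNA counts per gene would not show a point mutation.

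Library totals ranged from 30632355 to 38408851 counts. Both replicate A libraries stood apart from the other 6 on the first principal component of all genes, which held 41.5% of the variance (scores of 69.4 and 78.2 against −37.1 to −10.9). The genotype differences over both gels are given with and without replicate A.

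The members are a small set of mostly modest expression. Their mean was 57.1 to 82503 counts per library, with a median of 334.5, against a median of 1012 over the 11743 IDs kept. In 11 members, at least 1 library held 3 counts or fewer. Together the members took 0.113% and 0.381% of the counts in control viscous libraries (A and B) and 0.239% and 1.31% in control elastic libraries. In Jak2 V617F cells they took 0.691% and 0.316% in viscous gel (C and D) and 1.32% and 1.29% in elastic gel. Of the other IDs kept, 73 passed the ratio of 1 in control cells only and 43 in Jak2 V617F cells only. A further 44 were below −1 in both genotypes, and 3 and 3 passed in opposite directions.

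**Figure D1:**
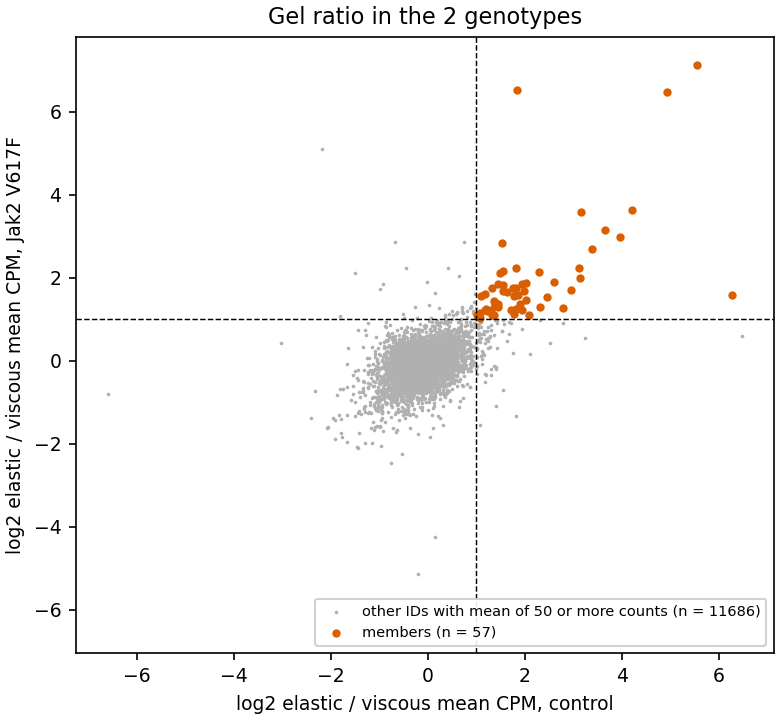
Log2 ratio of elastic to viscous mean CPM (0.1 added) in control cells (x axis) and Jak2 V617F cells (y axis), 1 point per gene ID with a mean of 50 or more counts, and dashed lines at 1. The 57 members (orange) fill the upper right corner by the rule that chose them, most of them between 1 and 3 on both axes.

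Among the members, the log2 ratio ran from 1.01 to 6.28 in control cells (median 1.81) and from 1.02 to 7.13 in Jak2 V617F cells (median 1.59). At the edge of the rule, member 55 had ratios of 1.09 in control and 1.13 in Jak2 V617F cells, member 56 had 1.08 and 1.02, and member 57 had 1.01 and 1.10. The 3 IDs just outside had 0.99 and 1.27, 1.38 and 0.99, and 2.31 and 0.99. The control ratio was the larger in 37 members and the Jak2 V617F ratio in 20. The ratios differed by more than 1 log2 unit in 9 members. This difference between genotypes uses the values that chose the members and was not tested.

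In Jak2 V617F cells the elastic libraries lay above the viscous libraries without overlap in 55 of the 57 members, the exceptions being members 22 and 51. In control cells they did so in 29, and over both genotypes, 4 libraries against 4, in 14. Among the 11743 IDs kept, 16.5% were separated this way in Jak2 V617F cells, 10.1% in control cells and 1.53% over both genotypes. The rule favours such separation, so nothing is read from these shares. edgeR's quasi-likelihood test of gel over both genotypes called 0% of 14785 IDs at a Benjamini-Hochberg adjusted p under 0.05, with 928 at an unadjusted p under 0.05. DESeq2 called 134 (0.906%). The edgeR fit had no block for the replicate, and with the replicate as a fixed block it called 5.

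The gel difference was uneven among the replicates. On the scale of log2(CPM + 0.1), the median difference between the elastic and the viscous library was 0.88 for control replicate A and 2.07 for replicate B, and 1.17 for Jak2 V617F replicate C and 2.53 for replicate D. The same medians over the IDs kept lay between −0.062 and 0.016. Elastic exceeded viscous in 44 of 57 members for replicate A, in 57 for replicate B, in 57 for replicate C and in 55 for replicate D. Among the IDs kept the shares were 45.62%, 45.75%, 39.86% and 52.53%. A difference above 1 was found in 25, 55, 35 and 55 members in the same order (1.371%, 1.925%, 1.09% and 2.393% of the IDs kept). All 4 replicates passed 1 in 17 members, 3 of them in 22 and 2 of them in 18. Over the IDs kept, members included, the counts were 17, 38 and 109. The rule favours such counts, so nothing is read from them. The highest control library was elastic replicate B in 48 members (84.2%, against 18.4% of IDs kept), so the control ratio of mean CPM followed that library most.

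**Figure D2:**
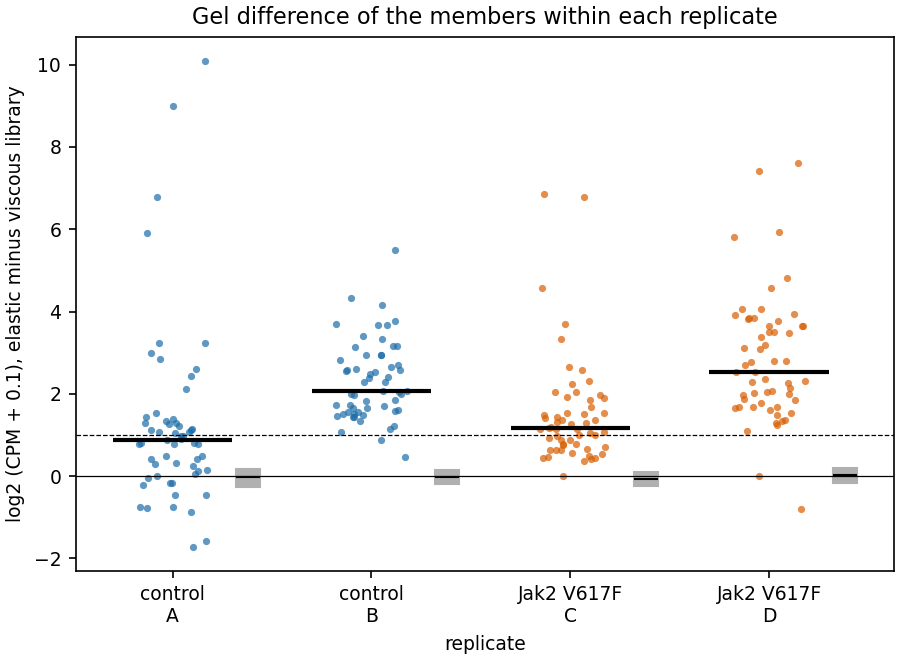
Difference in log2(CPM + 0.1) between the elastic and the viscous library of each replicate (y axis) for the 57 members (points; control in blue, Jak2 V617F in orange), with the members' median (black bar) and the quartiles and median over the 11743 IDs kept (grey box). Control replicate A has the lowest median (0.88) with 44 members above 0, and replicate D the highest median (2.53).

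The steepest gel ratios belonged to a few members that were near 0 in viscous gel. Which cells in these bulk samples made their RNA was not tested. Member 1 (ENSMUSG00000076609) stood at 0.17 and 3.19 CPM in control viscous libraries (A and B) and at 138.8 and 29.4 CPM in control elastic libraries. Its Jak2 V617F levels stood at 13.7 and 21.5 CPM in elastic gel (C and D). Both Jak2 V617F viscous libraries held 1 count. The order of the control replicates was opposite in the 2 gels, replicate B being higher in viscous and replicate A in elastic gel. For Jak2 V617F cells, 1162 elastic against 2 viscous counts give a ratio of 652.6, with an exact 95% counting interval of 180.2 to 5395. Such intervals cover counting error only, and reads from PCR are not independent molecules.

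Member 2 (ENSMUSG00000095079) stood at 0.029 and 5.52 CPM in control viscous libraries (A and B) and at 139.7 and 36.3 CPM in control elastic libraries. With the Jak2 V617F allele it stood at 11.5 and 6.02 CPM in elastic gel (C and D) and at 0 counts in both viscous libraries. Against a floor of 3 counts over that viscous group, the Jak2 V617F elastic level was at least 222.8-fold higher. Members 1 and 2 therefore showed the same library order in control cells, with the replicate A elastic library far above the other 7.

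Member 3 had this shape at a lower level, with 0.23 and 0.92 CPM in control viscous libraries (A and B) and 19.7 and 5.26 CPM in control elastic libraries. Its Jak2 V617F levels were 0.16 and 0.027 CPM in viscous (C and D) and 2.48 and 2.02 CPM in elastic gel. Member 22 was at 0 counts in all 4 viscous libraries, at 10.9 and 4.42 CPM in the control elastic libraries (A and B), and at 14 and 0 counts in the Jak2 V617F elastic libraries (C and D). Its elastic level was at least 169.5-fold above the floor in control cells and at least 5.24-fold in Jak2 V617F cells, where a single library carried it. Member 13 had the reverse genotype pattern: 0 and 2 counts in control viscous and 19 and 4 counts in control elastic libraries (A and B), but 124 and 613 counts in Jak2 V617F elastic libraries (C and D). Its Jak2 V617F viscous libraries held 2 and 0 counts, a ratio of 413.9 with a counting interval of 114.2 to 3424. The control ratio of 12.2 (3.02 to 106.9) rests on 25 counts in all.

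Most other members followed a second pattern, higher in the elastic libraries of replicate B, replicate C and replicate D than in both libraries of replicate A. Member 5 stood at 0 and 1.44 CPM in control viscous (A and B), 0.85 and 19.8 CPM in control elastic, 3.31 and 2.55 CPM in Jak2 V617F viscous (C and D) and 20.3 and 33.2 CPM in Jak2 V617F elastic libraries. Member 6 stood at 0.11 and 1.29, 0.29 and 24.6, 6.56 and 0.47, and 25.2 and 31.9 CPM in the same order. The elastic control library of replicate A lay below the viscous library of replicate B for both members, so the control gels overlapped while the Jak2 V617F gels did not. Member 7 had the highest place among members with a mean above 1012 counts, the median of the IDs kept: 2.54 and 4.88 CPM in control viscous, 15.9 and 63.9 CPM in control elastic, 21.9 and 10.6 CPM in Jak2 V617F viscous and 90.8 and 120.7 CPM in Jak2 V617F elastic libraries. Within each genotype its elastic libraries were above its viscous libraries. Member 4 was scarcer, with 0 and 0.21 CPM in control viscous, 0.85 and 2.66 CPM in control elastic, 0.57 and 0.38 CPM in Jak2 V617F viscous and 8.63 and 4.92 CPM in Jak2 V617F elastic libraries. Its elastic libraries did not overlap its viscous libraries over both genotypes.

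Members 23 and 25 showed how far replicate A could lie from the rest. Member 23 stood at 21.4 and 118.4 CPM in control viscous, 19.1 and 489.5 CPM in control elastic, 247.6 and 100.8 CPM in Jak2 V617F viscous and 550.5 and 487.2 CPM in Jak2 V617F elastic libraries. Member 25 stood at 5.28 and 61.3, 1.70 and 194.7, 84.8 and 27.8, and 243.3 and 255.3 CPM in the same order. In replicate A both were lower in elastic than in viscous gel, the reverse of the other 3 replicates. Member 31 was milder, with 53.4 and 67.3 CPM in control viscous, 91.9 and 403.7 CPM in control elastic, 190.1 and 101.9 CPM in Jak2 V617F viscous and 455.4 and 350.1 CPM in Jak2 V617F elastic libraries. Its elastic libraries were above its viscous libraries in each genotype, and the difference was smallest in replicate A.

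The members with the most counts, which counting error affects least, showed the same unevenness. Member 40 stood at 199.6 and 1725 CPM in control viscous (A and B) and 349.7 and 4888 CPM in control elastic libraries, and at 2285 and 1288 CPM in Jak2 V617F viscous (C and D) and 4529 and 4137 CPM in Jak2 V617F elastic libraries. Its group means were 962.3 ± 1079 and 2619 ± 3209 CPM in control viscous and elastic gel, and 1787 ± 704.4 and 4333 ± 277.2 CPM with the Jak2 V617F allele (SD, n = 2). Member 53 had nearly the same profile, with 235.6 and 1291, 316.1 and 3488, 2260 and 1070, and 3797 and 3278 CPM in the same order. For both, on the scale of log2(CPM + 0.1), the distance between replicate A and replicate B within each gel was larger than the distance between the gels within either of them. In CPM this did not hold in viscous gel, where the 2 control libraries lay closer than the gels of replicate B.

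Member 10 differed from these in viscous gel, where it stood at 108.4 and 67.1 CPM in control (A and B) and at 674.2 and 67.4 CPM with the Jak2 V617F allele (C and D). In elastic gel it stood at 185.6 and 1360 CPM in control and at 1046 and 1887 CPM with the allele. The Jak2 V617F viscous library of replicate C was thus far above that of replicate D, and the SD of the viscous group (429.1 CPM) exceeded its mean (370.8 CPM). Member 16 was among the most even in control elastic gel, while its replicates differed by more than 2-fold in viscous gel in both genotypes. It stood at 221.6 and 105.9 CPM in control viscous and 533.5 and 631.7 CPM in control elastic libraries. With the allele it stood at 314.1 and 130.5 CPM in viscous and 846.6 and 642.8 CPM in elastic libraries. Its 4 elastic libraries lay above its 4 viscous ones, and its ratios were 3.56-fold in control and 3.35-fold in Jak2 V617F cells. Member 36 had close replicates in Jak2 V617F cells, at 84.7 and 84.1 CPM in viscous and 226.4 and 205.5 CPM in elastic gel. In control cells it stood at 53.1 and 33.1 CPM in viscous and 74.6 and 161.1 CPM in elastic gel (A and B).

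**Figure D3:**
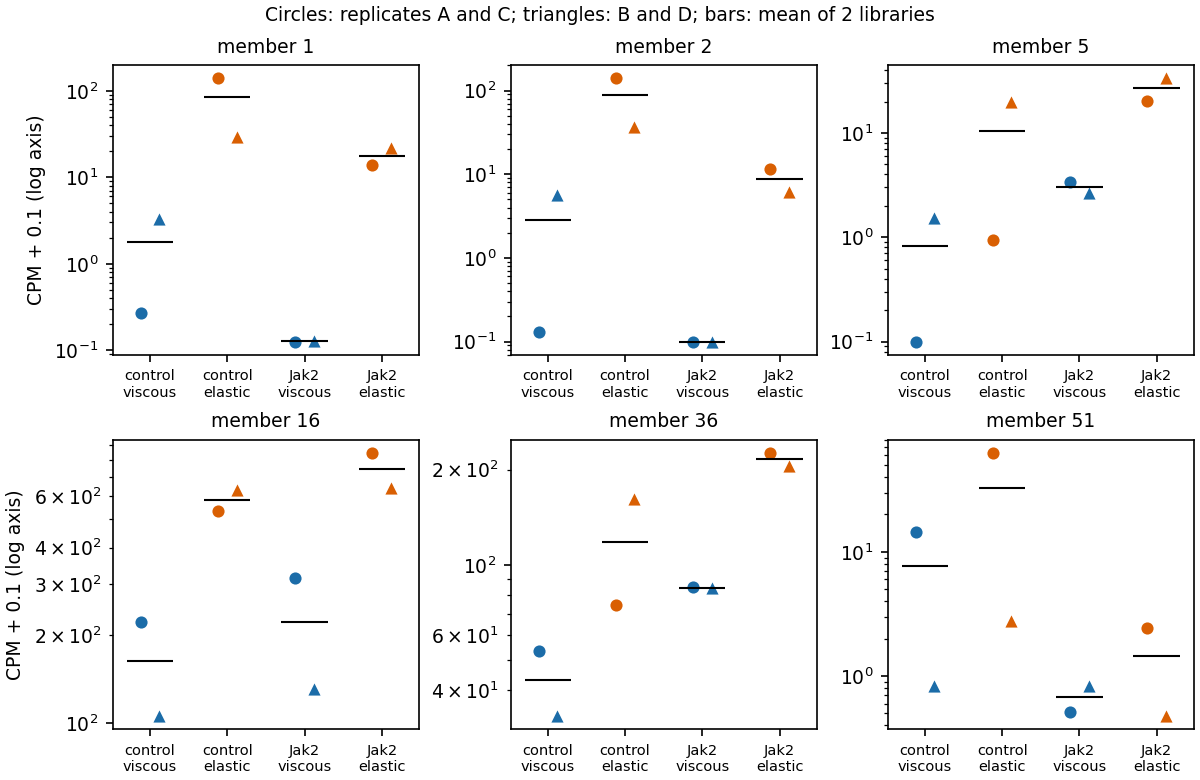
CPM + 0.1 on a log axis in the 4 groups for members 1, 2, 5, 16, 36 and 51, 1 point per library (blue viscous, orange elastic; circles replicate A and replicate C, triangles replicate B and replicate D) and a bar at the mean of each group's 2 libraries. Members 1, 2 and 51 are highest in the control elastic library of replicate A, and member 5 is low in both libraries of replicate A.

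Replicate spread separated the groups. In elastic gel, Jak2 V617F libraries differed by more than 2-fold in 4 of 57 members, against 47 in control cells. In viscous gel the counts were 31 in Jak2 V617F and 32 in control cells. Over the IDs kept, 0.945% and 12.1% differed that much in elastic gel and 4.07% and 10.9% in viscous gel. The members' median coefficient of variation between the 2 libraries was 11.9% in Jak2 V617F elastic, 58.4% in Jak2 V617F viscous, 60.9% in control viscous and 99.5% in control elastic gel. The corresponding medians over the IDs kept were 5.75%, 9.90%, 14.3% and 14.3%. The rule used the same libraries, so these spreads are a description of the members.

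The control spread had a direction. Replicate B was above replicate A in both gels in 39 members and by more than 2-fold in both gels in 21, against 31.1% and 2.47% of the IDs kept. In elastic gel replicate B was the higher in 48 members, by a median of 2.30 log2 units over all 57. The largest gaps were in members 25 (194.7 against 1.70 CPM), 6 and 21 (97.4 against 2.02 CPM). The 9 members in which replicate A was higher in elastic gel were members 1, 2, 3, 11, 13, 22, 26, 47 and 51, and 4 of these (11, 26, 47 and 51) had replicate A higher in viscous gel as well. The smallest gaps in elastic gel were in members 19, 16 and 26, at 0.22, 0.24 and 0.44 log2 units.

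Member 51 was the clearest exception to the common pattern. It stood at 14.4 and 0.74 CPM in control viscous (A and B), 62.8 and 2.66 CPM in control elastic, 0.42 and 0.74 CPM in Jak2 V617F viscous (C and D) and 2.34 and 0.38 CPM in Jak2 V617F elastic libraries. For replicate D its elastic value was below the viscous one, and its Jak2 V617F ratio came from replicate C alone. Member 11 was also higher in replicate A, with 3.08 and 1.29 CPM in control viscous, 17.0 and 10.6 CPM in control elastic, 4.95 and 2.71 CPM in Jak2 V617F viscous and 14.5 and 14.3 CPM in Jak2 V617F elastic libraries, and its 4 elastic libraries lay above its 4 viscous ones. Member 47 was more even, with 71.7 and 52.2 CPM in control viscous, 187.7 and 96.2 CPM in control elastic, 37.7 and 44.5 CPM in Jak2 V617F viscous and 97.2 and 95.9 CPM in Jak2 V617F elastic libraries.

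In Jak2 V617F viscous gel, replicate C was above replicate D in 48 members and by more than 2-fold in 31, against 60.7% and 2.42% of the IDs kept. The Jak2 V617F elastic mean was above the replicate C viscous library in all 57 members, which the rule favours. In those 48 members that library therefore lay between the replicate D viscous library and the elastic mean (15.8% of the IDs kept). This placing adds nothing to the count of 48. The elastic mean was above the replicate C viscous library by a median of 1.09 log2 units and above the replicate D viscous library by 2.57. In elastic gel the same replicates had a median gap of 0.019.

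Across the 8 libraries, each member's log2 profile was set against the median profile of the other members. Pearson's r had a median of 0.89 and was above 0.8 in 43 members, while it was below 0.5 in 6 members, namely 51, 22, 47, 3, 2 and 1. These values describe likeness only, because the points share libraries and depth and the members were chosen by a shared gel difference. Centred on each member's own mean, the members' median level was −1.75 and −0.90 log2 units in control viscous (A and B), −0.79 and 1.34 in control elastic, 0.32 and −1.08 in Jak2 V617F viscous (C and D), and 1.45 and 1.39 in Jak2 V617F elastic libraries. The replicate A elastic library therefore sat with the viscous libraries, and the replicate C viscous library between the gels. As these are bulk samples, fewer cells of a type that expresses a member and less of its RNA per cell cannot be told apart.

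**Figure D4:**
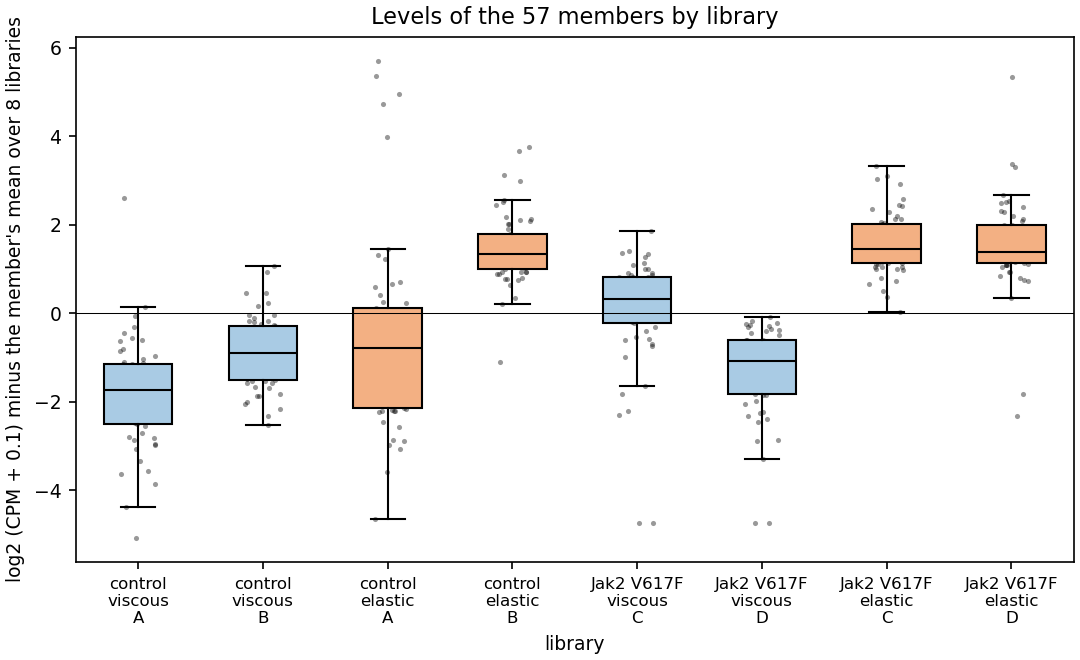
Log2(CPM + 0.1) of the 57 members minus each member's mean over the 8 libraries (y axis), by library (x axis), with a point per member and a box of the quartiles (blue viscous, orange elastic; whiskers reach the last point within 1.5 box heights). The elastic libraries of replicate B, replicate C and replicate D have medians of 1.34 to 1.45, and the elastic library of replicate A a median of −0.79.

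The genotypes were compared next, a contrast that the rule did not use. Counts were summed over both gels for each replicate, giving 2 control against 2 Jak2 V617F sums, and tested over all 15239 IDs that passed the low-count filter, among them the 57 members. The log2 fold change of Jak2 V617F over control was above 0 in 50 members (87.7%) and below 0 in 7, against 49.2% above 0 among all IDs tested. The rule's minimum of 50 counts fixed part of this: 11 members averaged fewer than 50 counts in 1 genotype and so had to be higher in the other to be kept. They were 8 of the members above 0, member 13 among them, and 3 of those below 0 (members 3, 22 and 51). Its median was 0.77 over the members and −0.005 over all IDs, and the quartiles of the members were 0.42 and 1.10. edgeR's quasi-likelihood test called 0 members, and 0% of all IDs, at an adjusted p under 0.05. The smallest adjusted p among members was 0.792. At an unadjusted p under 0.05 there were 8 members (14.0%) and 795 IDs in all (5.22%). Members 3, 13, 22 and 51 of these 8 are among the 11, so the minimum count set part of the members' share. limma-voom also called 0 members. DESeq2 called 4 members (2, 3, 13 and 22) and 106 IDs in all (0.696%), and members 3, 13 and 22 are among the 11.

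The size of this difference depended on replicate A. Without it, the fold change was above 0 in 38 members (66.7%, against 51.3% of all IDs), and the median fell to 0.16. Without replicate B the median was 2.25, and edgeR called 50 members and 2664 of 16004 IDs (16.6%), a fit in which replicate A alone stands for control cells and its spread is taken from the Jak2 V617F sums. Leaving out replicate C or replicate D gave medians of 0.55 and 0.93. In viscous gel, replicate A was more than 2-fold below the Jak2 V617F mean in 36 members (63.2%, against 4.46% of IDs kept). Replicate B was that far below it in 23 (40.4%, against 2.5% of IDs kept), and elastic gel is described next.

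**Figure D5:**
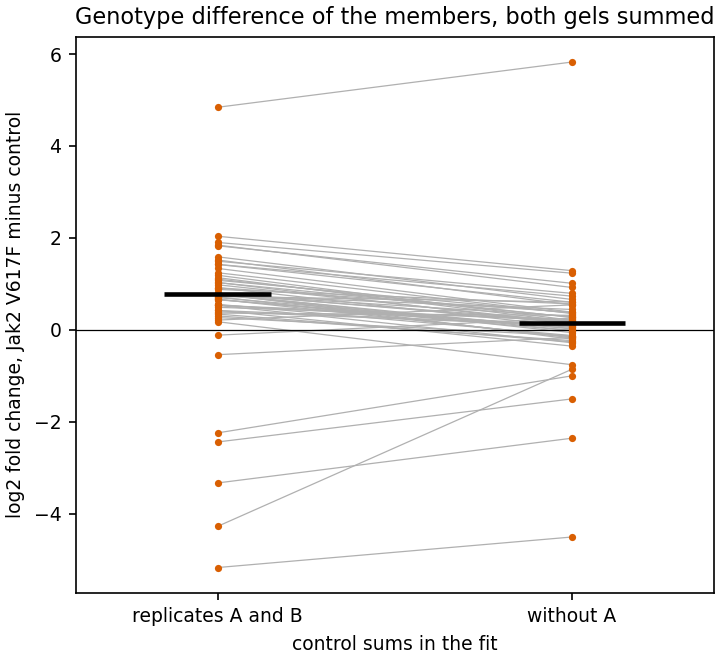
Log2 fold change of Jak2 V617F over control on counts summed over both gels (y axis) for the 57 members, with both control replicates and with replicate B alone (x axis); grey lines join the same member and black bars mark medians. The median is 0.77 with both and 0.16 without replicate A.

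In elastic gel alone, 50 members were above 0 (87.7%, against 48.4% of all IDs) in the fit of all 8 libraries, with a median log2 fold change of 0.75. The minimum of 50 counts bears on this count too. edgeR called 0 members and 0% of 14785 IDs. An unadjusted p under 0.05 was found in 4 members (7.02%) and 654 IDs (4.42%). DESeq2 called 1 member (13) and 41 IDs (0.277%). The 4 are members 3, 13, 22 and 51, all among the 11 kept through 1 genotype, so nothing is read from these calls. Without both replicate A libraries the median was 0.099, with 33 members above 0 (57.9%, against 50.6% of all IDs), and without the control library of replicate B it was 2.56. The elastic library of replicate B was within 2-fold of the Jak2 V617F elastic mean in 49 of 57 members (86.0%, against 98.3% of IDs kept). That of replicate A was within 2-fold in 9 (15.8%, against 88.0% of IDs kept) and more than 2-fold below it in 43 (75.4%, against 5.49% of IDs kept). Jak2 V617F libraries lay above control libraries without overlap in 23 members (40.4%, against 18.2% of IDs kept) and below them in 5 (8.77%, against 17.7% of IDs kept). Members 4, 9, 13, 14, 17, 32 and 41 of the 23 are among the 11 kept through 1 genotype. So are members 3, 22 and 51 of the 5, and the minimum count therefore set part of both shares.

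In viscous gel, 48 members were above 0 (84.2%, against 48.7% of all IDs), with a median of 0.84. edgeR called 0 members and 0% of 14785 IDs; 5 members (8.77%) and 1081 IDs (7.31%) had an unadjusted p under 0.05, and DESeq2 called 0 members and 61 IDs (0.413%). Here the median depended on the Jak2 V617F replicate too. Without the viscous library of replicate C it was 0.056, with 30 members above 0 (52.6%, against 46.9% of all IDs), and without that of replicate D it was 1.42. Among control libraries it was 1.62 without the viscous library of replicate B and 0.47 without both replicate A libraries. Jak2 V617F libraries lay above control libraries without overlap in 13 members (22.8%, against 18% of IDs kept) and below them in 4 (7.02%, against 19.8% of IDs kept). Over both gels, 4 libraries against 4, this was so in 0 members in either direction, where 4% of the IDs kept were above and 3.24% below. Of the members without overlap in viscous gel, members 4 and 17 (above) and member 3 (below) are among the 11 kept through 1 genotype.

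The members with the smallest p in the summed comparison lay on both sides. Member 2 was lower in Jak2 V617F cells, with a log2 fold change of −3.33 (SE 0.67, 95% interval −5.15 to −1.52, adjusted p = 0.792), and −2.36 without replicate A. Members 3 and 22 were lower as well, at −2.44 (SE 0.59) and −5.17 (SE 1.30), while member 13 was higher at 4.84 (SE 1.11), all with an edgeR adjusted p of 0.792. Without replicate A these were −1.50, −4.51 and 5.83. With both control replicates, the direction of all 3 was fixed by the minimum count, as given above. Member 1 stood at −2.25 (SE 0.70) and at −1.0 without replicate A. Member 51 moved from −4.28 (SE 1.56) to −0.86 when replicate A was left out, and its direction was fixed in the same way. Of the remaining members with an unadjusted p under 0.05, member 36 stood at 0.88 (SE 0.27) and member 42 at 0.72 (SE 0.22), and at 0.56 and 0.60 without replicate A. For the members with the most counts the intervals were wide: member 40 had 0.72 (95% interval −2.41 to 3.85) and member 53 had 0.92 (−1.90 to 3.73), and both intervals held differences of several-fold in either direction. Without replicate A, member 40 turned to −0.18 and member 53 stood at 0.063.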

How the data were processed

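Gene-level RNA counts of 8 libraries in 4 groups of 2 were used. The authors deposited whole-number counts for each Ensembl ID without normalization, and all 8 per-library files equal the table of the series. Tools named in the submitters' processing notes are Salmon and DESeq2, with the build GRCm38. Tool versions and roles, strand and annotation: not given in the sources used here. No ID had fewer than 10 counts in total. Groups were taken from the titles. Tests used edgeR 4.0.16 (R 4.3.3): filterByExpr, TMM scaling, quasi-likelihood fits, two-sided, Benjamini-Hochberg adjustment over all IDs. Genotype over both gels used counts summed per replicate; the other contrasts used 1 fit of 4 group means. The code was tested on simulated data. Alternatives were DESeq2 1.42.0, limma-voom (limma 3.58.1), other scalings, filters, pseudocounts and averaging, the replicate as a block, and each library left out; leaving out both replicate A libraries was added after seeing the data. Members and lists were chosen with earlier results of these data known. Members to describe were taken from the first 25 in order, the 6 with the highest mean CPM, the 5 with the smallest p for genotype over both gels, the 3 with the largest and the 3 with the smallest gap between control libraries of a gel, and the 3 on each side of the threshold; members 36 and 47 were picked after their values were seen. The cell type markers and the 24 gene lists were not analysed, for want of gene names, and no sequence was matched. Figures used matplotlib 3.10.9.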

Additional observations from a re-analysis of the deposited data

How the results depend on the processing

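The set held 37 members with a mean of at least 200 counts, 17 with the replicate block (a log2 ratio above 1 within each of the 4 replicates), and 22 to 88 with 1 library left out: 22 without the control elastic library of replicate B (18 of them among the 57) and 88 without the Jak2 V617F viscous library of replicate C (56 among the 57). Without both replicate A libraries it held 67, of which 53 were among the 57. The other rules gave 43 to 78 members. DESeq2 called 106 IDs for genotype over both gels, 61 in viscous and 41 in elastic gel, and 134 for gel over both genotypes; of the members it called 4, 0 and 1 for genotype. For gel, edgeR called 1 ID with no low-count filter, 5 with the replicate as a fixed block and 2 without both replicate A libraries. For genotype over both gels, edgeR called 2 IDs as an average over the 8 libraries, and between 0 and 2664 when a sum was left out (0 to 50 members, the 2664 and 50 without replicate B). Calls were 0 in 35 of 44 alternative counts over all IDs and in 27 of 30 over the members. The members' median genotype difference was above 0 in all 30 alternative values, from 0.056 to 2.56. These values reuse the same 8 libraries and 57 members. The minimum of 50 counts fixed 8 members above 0 in the main comparison over both gels. It did not fix them in every alternative: member 28 stood at −0.205 without replicate A. Since the values share libraries, members and this minimum, the shared sign is not independent evidence. The genotype difference of member 40 was −0.18 without replicate A and 3.54 without replicate B. With the replicate as a random block, limma-voom called 0 IDs for genotype; a fixed block could not be fitted there, since each replicate lies within 1 genotype. Deviations from the group means correlated at 0.53 between the control libraries that share a title number and at −0.089 in Jak2 V617F cells. The main test of gel had no block because what the title numbers mark is not stated. If they mark a shared source, that test ignored a pairing. The genotype tests within each gel came from the same fit without a block, so their p-values carry the same limit. With the fixed block 1757 IDs had an unadjusted p under 0.05 in edgeR's test of gel, against 928 without it. Sums and differences within a replicate follow the shared title number, and whether its libraries share an animal or culture is not stated. With 2 libraries a group, depth limits only the members near 0 counts; for the others the spread between libraries is the limit.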
